A study of Mus musculus with 2 samples.

Results

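The 9 miRNA genes described here, Mir337, Mir540, Mir665, Mir431, Mir433, Mir127, Mir434, Mir432 and Mir136, lie together on the plus strand of chromosome 12 at the Rtl1 locus, and were chosen by these symbols from the 2202 miRNA genes in the deposited tables. They span chr12:109585789-109595388 of mm10, and all 9 were found by their Ensembl identifiers in the GENCODE M21 annotation. Small RNA under 30 bases came from the hippocampus. The animals were B6CASTF1/J males at 2 months of age, the first-generation hybrid of the C57BL/6J and CAST/EiJ strains, with no treatment named in the labels. There was 1 group with 2 biological replicates. The labels name separate biosamples and a single donor entry, so the spread between the replicates may not cover the spread between animals. The tables used here hold no counts by parental allele. With no second condition, levels were compared between genes and between these 2 libraries.

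MicroRNAs are short RNAs cut from both arms of a hairpin precursor, and a miRNA recognises its target RNAs mainly through the seed near its 5′ end. The Dlk1-Dio3 domain is imprinted: the protein-coding genes Dlk1, Rtl1 and Dio3 are expressed from the paternal chromosome, and the noncoding RNAs, with many miRNAs, from the maternal chromosome. Rtl1, a gene derived from a retrotransposon and known for its part in the placenta, is read from the minus strand. A maternal transcript on the plus strand runs antisense to it, and the miRNAs cut from that transcript are fully complementary to the Rtl1 messenger RNA and are known to direct its cleavage.

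The annotation divided the genes in 6 and 3. Mir431, Mir433, Mir127, Mir434, Mir432 and Mir136 lie opposite Rtl1 (ENSMUSG00000085925.3, chr12:109589193-109600330, minus strand) and all 6 hairpins fall wholly within its coding sequence of 5235 bases. Mir337, Mir540 and Mir665 lie outside the M21 gene model, beyond the 3′ end of Rtl1, so the name antisense fits only the 6 in that annotation. RefSeq draws a longer Rtl1, chr12:109564900-109604418 of the same assembly (GRCm38.p6), which encloses all 9. Counting codons from the Rtl1 start, the complement of Mir136 covers codons 6 to 26, that of Mir432 codons 125 to 150, that of Mir434 codons 269 to 300, that of Mir127 codons 830 to 853, that of Mir433 codons 1189 to 1230 and that of Mir431 codons 1623 to 1653.

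All 9 genes had mature sequences in RefSeq (GRCm38.p6), 17 arms in all. The 11 arms of the 6 genes opposite Rtl1 are shown first because each was found, base for base, as a reverse complement in the Rtl1 transcript. Each is written 5′ to 3′ with the seed, bases 2 to 8, in capitals.
miR-127-3p: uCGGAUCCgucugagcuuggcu
miR-127-5p: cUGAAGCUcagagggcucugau
miR-433-3p: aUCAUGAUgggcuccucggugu
miR-433-5p: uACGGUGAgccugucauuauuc
miR-434-3p: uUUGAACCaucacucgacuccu
miR-434-5p: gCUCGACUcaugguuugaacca
miR-431-3p: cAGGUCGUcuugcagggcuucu
miR-431-5p: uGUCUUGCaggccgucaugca
miR-136-3p: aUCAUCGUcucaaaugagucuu
miR-136-5p: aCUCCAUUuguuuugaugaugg
miR-432: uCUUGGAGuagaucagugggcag

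The most abundant of these hairpins, Mir127 (ENSMUSG00000070076.2, chr12:109592846-109592915, plus strand), is shown with its annotated mature arms in capitals, to show how they lie in the precursor. The Rtl1 site that pairs with miR-127-3p is given as DNA, with the bases opposite the seed in capitals.
Mir127 hairpin: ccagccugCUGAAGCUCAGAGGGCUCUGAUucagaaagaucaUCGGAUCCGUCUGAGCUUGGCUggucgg
Rtl1 site of miR-127-3p: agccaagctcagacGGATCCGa

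The 3 genes outside the M21 model of Rtl1 carry 6 arms, none with a complement in the M21 transcript of Rtl1. The longer RefSeq model was not searched. The arms of Mir337 are shown because the leading gene of this trio overlaps a miRNA gene on the other strand, and miR-540-3p because it alone of the 17 arms has a seed held by another of the 1738 mature miRNAs in the RefSeq table. That other miRNA is miR-6915-5p.
miR-337-3p: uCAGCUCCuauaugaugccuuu
miR-337-5p: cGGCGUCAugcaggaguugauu
miR-540-3p: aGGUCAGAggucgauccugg
miR-6915-5p: aGGUCAGAgcagauggagguucgu

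The 17 arms thus hold 17 different seeds, so no member shares a seed with another. The partner gene Mir6915, on chromosome 10, had 8 and 6 counts in replicates 1 and 2 and was not detected by the threshold given below for levels. Longer stretches recurred among the members. The arms of Mir431 share the 10-base run GUCUUGCAGG, those of Mir434 share 9 bases, and miR-337-5p and miR-431-5p share the 9-base run CGUCAUGCA. No hairpin shared more than 14 bases with a hairpin at another locus of the tables, the longest being between Mir665 and Mir8104. The hairpins ranged in GC content from 40.3% for Mir136 to 61.2% for Mir540, against a median of 52.0% over detected miRNA genes. Predicted folding energy per base ran from -0.61 kcal/mol for Mir540 to -0.32 for Mir432, against a median of -0.43. Per base, Mir432 has the least stable predicted hairpin of the 9, followed by Mir433 at -0.36, and Mir127 is at -0.50.

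Libraries held 6441333 reads in replicate 1 and 10003856 in replicate 2, of which 2322520 and 3414105 were counted on miRNA genes. Levels are counts per 1000000 of these miRNA-gene counts (CPM), from reads on the strand of the gene and summed over both arms of a hairpin. Multimapping reads, 42.6% and 46.0% of the libraries, are in no gene's count. Detection meant reaching 2 CPM in each library, and a count of 0 allows up to 3 counts, or 1.29 and 0.879 CPM. Where paired values are given with no replicate named, replicate 1 comes first. As a check of the tissue, 10 of 12 neuronal marker miRNAs were detected, and the 12 summed to 33052 and 47686 CPM. Not detected were Mir124a-2, with 1 and 0 counts, and Mir124a-3, with 0 and 5 counts. Multimapping reads are left out here too, so these low counts do not show that the genes are silent. Lists for other cell types summed to between 40.7 CPM (liver, Mir122) and 14889 CPM (endothelium, Mir126a). Of their genes only Mir449b of choroid plexus was at 0 in both libraries.

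The members were abundant as a set, and 1 gene made up most of it. Of the 9 genes, 8 were detected, where 18.2% of all 2202 genes were. Together they held 5.56% and 5.20% of all miRNA-gene counts, a mean of 5.38% ± 0.250 (SD, n = 2). The Wilson 95% intervals of these shares ran from 5.53 to 5.59% and from 5.18 to 5.23%. The 6 genes opposite Rtl1 gave 5.28% and 4.95% of all counts, and the other 3 gave 0.272% and 0.249%. The ratio of these sums was 19.4 in replicate 1 and 19.9 in replicate 2. Medians were closer, at 1183 CPM for the 5 detected genes opposite Rtl1 and 690 CPM for the other 3. The median level of the 8 detected members was 943 CPM, beside 87.0 CPM for the 401 detected genes. Intervals cover counting error only, since amplified reads without molecular identifiers are not independent molecules.

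**Figure D1:**
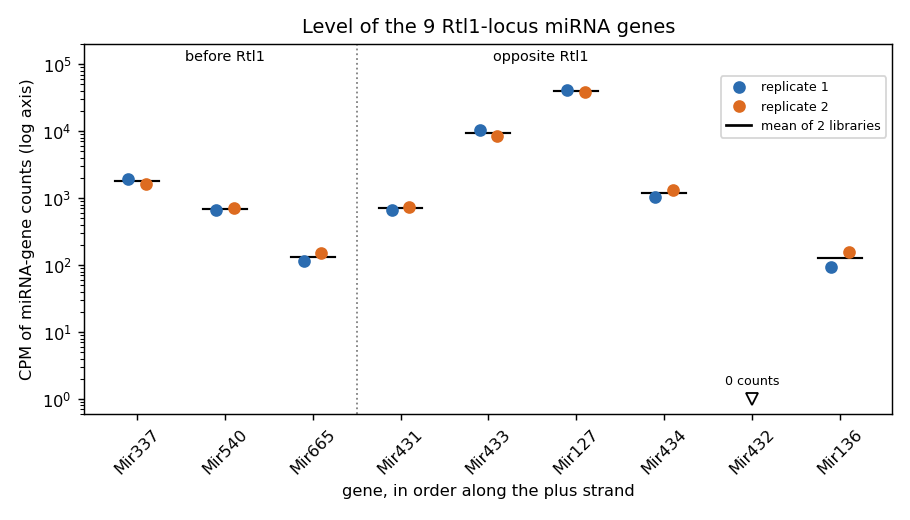
Level of each gene in CPM (log axis) in replicate 1 (blue) and replicate 2 (orange), in order along the plus strand, with the mean of the 2 libraries as a black line and a dotted line where the M21 model of Rtl1 begins. Mir127 stands highest at a mean of 39726 CPM, and Mir432, at 0 counts, is drawn as an open triangle at 1.

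Mir127 was the highest of the 9 by a wide margin. It had 94435 counts in replicate 1 and 132439 in replicate 2, which is 40661 and 38792 CPM (39726 ± 1321, SD, n = 2). It ranked sixth of all miRNA genes in replicate 1 and seventh in replicate 2, where it changed places with Mir744, at 37336 and 42051 CPM. The next higher gene by mean was Mirlet7d, at 57695 and 46150 CPM. Mir127 alone held 73.2% and 74.6% of the counts of the 9 genes (73.9% ± 0.971, SD, n = 2), so their sum mostly follows this gene.

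Mir433 (ENSMUSG00000070072.1, chr12:109591715-109591838) was next, at 10384 and 8514 CPM (9449 ± 1323, SD, n = 2). Mir433 and Mir127 are neighbours along the plus strand, 1007 bases apart. Mir127 exceeded Mir433 3.92-fold in replicate 1 and 4.56-fold in replicate 2, beyond the replicate spread by the rule that both ratios lie on the same side of 1 and their mean log2 exceeds 2 SD. These 2 genes held 91.9% and 90.9% of the members' counts.

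Mir434 (ENSMUSG00000070133.1, chr12:109594506-109594599) had 1036 and 1331 CPM (1183 ± 209, SD, n = 2). It lies 1590 bases from Mir127, and its level was 39.2-fold lower in replicate 1 and 29.1-fold lower in replicate 2. Mir431 (ENSMUSG00000070080.1, chr12:109590447-109590537) had 664 and 742 CPM (703 ± 55.2, SD, n = 2), 15.7-fold and 11.5-fold below Mir433, its neighbour at 1177 bases. Levels thus dropped on both sides of the Mir433 and Mir127 pair in both libraries.

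Mir136 (ENSMUSG00000104858.1, chr12:109595327-109595388), whose complement lies nearest the start of the Rtl1 protein, was the lowest detected gene by mean. It had 219 counts in replicate 1 and 536 in replicate 2, which is 94.3 CPM (Wilson 95% interval 82.6 to 108) and 157 CPM (144 to 171). These intervals do not overlap. Mir432 (ENSMUSG00000087855.1, chr12:109594956-109595030), between Mir434 and Mir136, had no count in any strand column of either library. At this depth its level was not detectable, and the limit that 0 counts allow is 1.29 CPM in replicate 1 and 0.879 in replicate 2. This limit covers counted reads only: multimapping reads are in no gene's count, and uniqueness of the mature sequences in the whole genome was not checked.

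Outside the M21 model of Rtl1, the level was lower with each step along the plus strand. Mir337 (ENSMUSG00000065526.4, chr12:109585789-109585885), the first, had 1931 and 1635 CPM (1783 ± 209, SD, n = 2). Mir540 (ENSMUSG00000072900.2, chr12:109586080-109586146) had 673 and 707 CPM (690.2 ± 23.8, SD, n = 2), or 2.87-fold and 2.31-fold less than Mir337. Mir665 (ENSMUSG00000076313.1, chr12:109586314-109586407), the last, had 116 and 152 CPM (134 ± 25.3, SD, n = 2), or 5.79-fold and 4.65-fold less than Mir540. The order was the same in both libraries, with 194 bases between the first hairpins and 167 between the next.

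By mean, the 8 detected genes stood in the order Mir127, Mir433, Mir337, Mir434, Mir431, Mir540, Mir665 and Mir136, over a 316-fold range of means. Of the 7 neighbouring pairs in this order, 4 differed beyond the replicate spread. Mir337 and Mir434 did not, although Mir337 was higher 1.86-fold and 1.23-fold. Mir431 and Mir540 changed places between the libraries, at ratios of 0.985 and 1.05, and so did Mir665 and Mir136, at 1.23 and 0.968. Levels are compared per gene, without scaling by hairpin length. The annotated arms are 20 to 26 bases long, and the tables hold no read lengths.

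Rtl1 is read from the strand opposite to these hairpins, and the tables count each strand separately. The 6 genes opposite Rtl1 had 291836 counts on their own strand over both libraries and 0 on the Rtl1 strand. Over all 9 members there was 1 opposite-strand count, at Mir337 in replicate 1. No opposite-strand count in either library was also the rule elsewhere, in 372 of the 401 detected genes. The libraries were made from RNA under 30 bases, and the level of the Rtl1 messenger RNA was not measured.

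Mir337 and Mir136 each overlap a miRNA gene on the minus strand, Mir3544 (chr12:109585813-109585873) and Mir3071 (chr12:109595318-109595397). Mir3544 had 1 and 0 counts and Mir3071 had none, while Mir337 had 4485 and 5583 counts and Mir136 had 219 and 536. In the unstranded column of the deposited tables Mir337 and Mir136 are both at 0, as are 24 of the 401 detected genes. Their measurement therefore rests on the strand-specific column, and with the unstranded column 6 of the 9 genes would pass as detected.

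Other miRNA genes inside the span were low. Mir3070a and Mir3070b, between Mir665 and Mir431, had 11.2 and 10.8 CPM and 22.8 and 17.0 CPM in replicates 1 and 2. They share 43 bases with each other, so part of their reads may be among the multimapping reads. None of the 9 members has such a partner in the tables.

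Outside the span of the 9 genes, the domain was divided into 3 blocks of plus-strand miRNA genes, 4 from the start of Meg3 to Mir337 (the Meg3 side), 5 from Mir136 to Mir379 (the Rian side) and 38 from Mir379 to Mir410 (the Mirg side). Meg3, Rian and Mirg are the long noncoding RNAs of the maternal chromosome. With the 9 members these make 56 genes, of which 48 were detected. Mir3070a and Mir3070b, inside the span, are not among the 56. The members held 48.9% of the counts of all 56 genes in replicate 1 and 47.5% in replicate 2. Mir127 alone held 35.8% and 35.4% (35.6% ± 0.284, SD, n = 2).

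**Figure D2:**
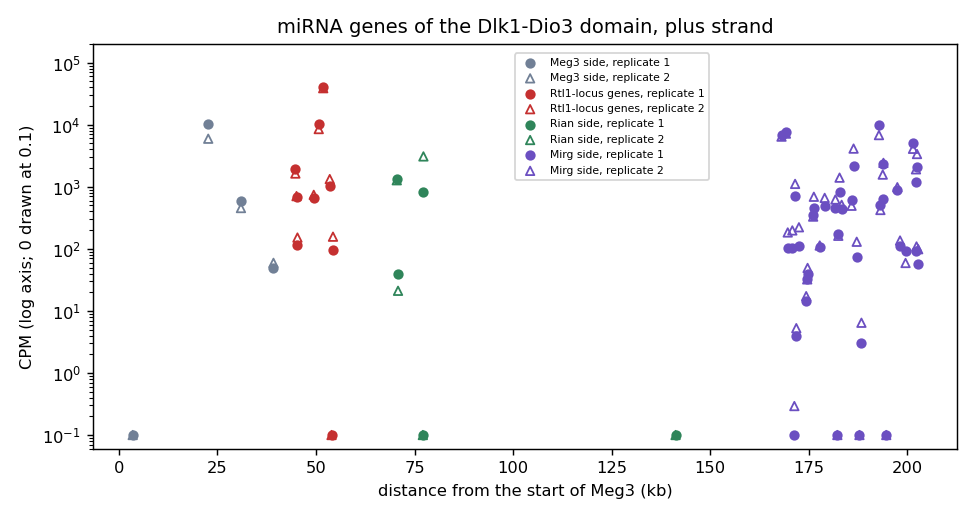
CPM on a log axis of each plus-strand miRNA gene of the domain against its distance from the start of Meg3 (kb), as filled circles in replicate 1 and open triangles in replicate 2, coloured by block, with 0 drawn at 0.1. The Rtl1-locus genes (red) reach the highest level, 39726 CPM for Mir127, and their lowest point is Mir432 at 0.

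In counted reads, the 9 members summed to slightly more than the 38 genes of the Mirg side did. Multimapping reads are in no gene's count, and some genes of the Mirg side share long stretches. Mir376b and Mir376c share 31 bases and Mir411 and Mir758 share 21, where no member shares more than 14. Part of the reads of the Mirg side may thus be left out of this comparison. The ratio of the members to the Mirg side was 1.24 in replicate 1 and 1.11 in replicate 2. It passed the rule above for the replicate spread only narrowly, at a mean log2 of 0.235 and an SD of 0.111 (n = 2). That direction came from Mir127: without it, an alternative chosen after seeing the data, the other 8 members summed to 0.307 of the Mirg side. Means of the detected members ran from 126 to 39726 CPM. On the Mirg side they ran from 4.57 to 8299 CPM, with a smaller part of the sum in any single gene. Its leading genes were Mir382, at 9792 and 6806 CPM, Mir411, at 7572 and 7194 CPM, and Mir379, at 6917 and 6432 CPM, and 34 of its 38 genes were detected at a median of 470.3 CPM.

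The members exceeded the Meg3 side 5.00-fold and 8.05-fold, and the Rian side 25.4-fold and 11.9-fold. These ratios moved more between the libraries than that to the Mirg side. Mir770, the leading gene of the Meg3 side, had 10462 and 5949 CPM, ahead of Mir673 at 589 and 454 CPM and Mir493 at 49.9 and 59.5 CPM. Mir370, the leading gene of the Rian side by mean, had 828 and 3085 CPM, ahead of Mir341 at 1322 and 1274 CPM and Mir1188 at 38.8 and 21.1 CPM. Without Mir127 the ratios were 1.66 over the Meg3 side and 4.54 over the Rian side. Within the domain Mir127 ranked first in both libraries. Mir433 ranked 3 in replicate 1, just behind Mir770, and 2 in replicate 2. The other detected members ranked lower among the 56 genes by mean, from 12 for Mir337 and 15 for Mir434 to 35 for Mir136.

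**Figure D3:**
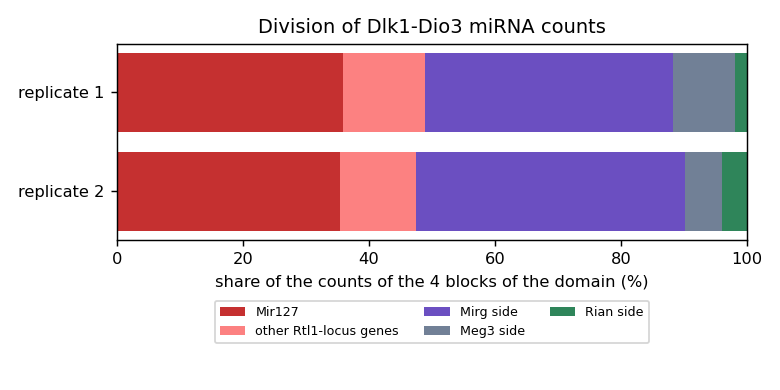
Share (%) of the counts of the 56 domain genes held by Mir127 (dark red), the other Rtl1-locus genes (light red) and the Mirg (purple), Meg3 (grey) and Rian (green) sides, with 1 bar per library. The red parts together are 48.9% in replicate 1 and 47.5% in replicate 2, and the Meg3 side narrows from 9.78% to 5.90%.

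The 2 libraries gave much the same picture of the members, with small differences beyond counting error. A two-sided exact binomial test on the counts, run over the 401 detected genes with edgeR TMM scaling and Benjamini-Hochberg adjustment, compared these libraries and not conditions. Of the 8 detected members 7 differed, where 50.9% of all detected genes did. Among the 48 detected genes of the domain, members included, 36 differed, and on the Mirg side 24 of 34 did. With no filter on low counts the share over all genes was 29.4% (210 of 715 genes tested), and the members' count stayed at 7 of 8. The test passes smaller differences at higher counts, and the detected members had a median of 943 CPM beside 87.0 over all detected genes. The share among genes of like level was not taken. Higher in replicate 2 were 4 members, where 28.2% of all genes were, and lower were 3, where 22.7% of all genes were. The median difference of the members was 1.22-fold, beside 1.26-fold over all detected genes, and 7 of the 8 differed by less than 1.5-fold.

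Mir136 showed the widest difference of the members, with a log2 ratio of 0.71 (replicate 2 over replicate 1, 1.63-fold, adjusted exact binomial p = 1.10e-09). Mir665, Mir434 and Mir431 were also higher in replicate 2, at log2 ratios of 0.36, 0.34 and 0.14. Mir431 no longer passed with DESeq2 size factors (adjusted exact binomial p = 0.0522). Lower in replicate 2 were Mir433, at a log2 ratio of -0.31, Mir337, at -0.27, and Mir127, at -0.09. Mir540 did not pass, with a log2 ratio of 0.04 (adjusted exact binomial p = 0.485). The difference of Mir127 was 1.07-fold, on 94435 and 132439 counts (adjusted exact binomial p = 7.70e-51).

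**Figure D4:**
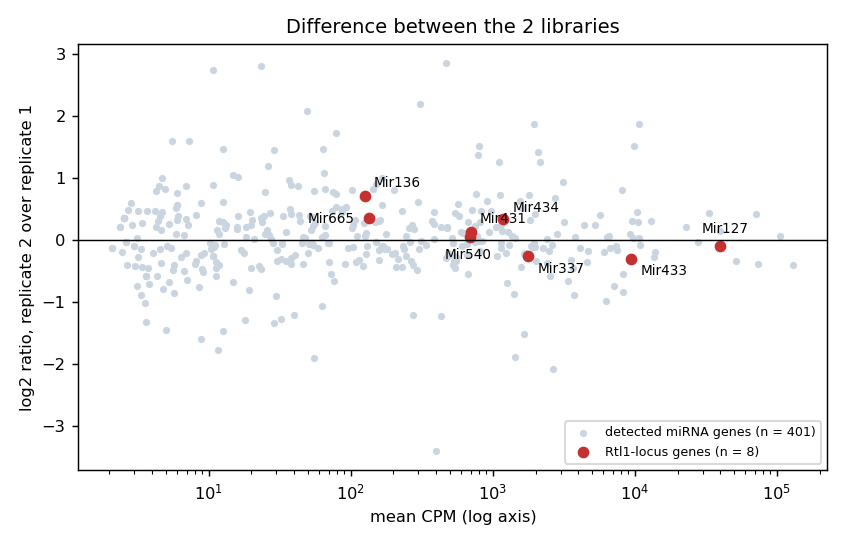
Log2 ratio of replicate 2 over replicate 1 against mean CPM (log axis) for the 401 detected miRNA genes (grey) and the 8 detected Rtl1-locus genes (red). The red points lie between -0.31 (Mir433) and 0.71 (Mir136), inside the spread of the grey points.

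The biological coefficient of variation over all detected genes, estimated by edgeR from these 2 libraries, was 29.9%. The members' own coefficients of variation in CPM ran from 3.33% for Mir127 and 3.45% for Mir540 to 35.3% for Mir136, with a median of 12.9% beside 16.0% over all detected genes. The members' sum fell from 55560 to 52029 CPM between replicates 1 and 2, while the neuronal marker list went from 33052 to 47686 CPM. Other marker lists were lower in replicate 2, as the members' sum was: endothelium went from 14889 to 12474 CPM, oligodendrocytes from 4367 to 2683, erythrocytes from 1922 to 1149, choroid plexus from 1049 to 994 and liver from 52.1 to 40.7. Mural cells went from 6456 to 6935 CPM and microglia and leukocytes from 1260.3 to 1598. Most of the neuronal rise was in Mir128-1, at 4518 and 16906 CPM. Most of the oligodendrocyte fall was in Mir219a-2, at 2447 and 865 CPM. All these list sums leave out multimapping reads. The part of these lists in the members' differences was not tested. In bulk tissue, fewer cells of a type and less RNA per cell cannot be told apart.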

How the data were processed

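Small RNA libraries of 1 group with 2 biological replicates were analysed. The deposited values were raw counts of reads per miRNA gene in 3 columns (both strands together, strand of the gene, opposite strand), and per the labels and the deposited sample descriptions the build was mm10 with annotation M21. No aligner or counter is given in the sources used here. The same-strand column was used. The 4 rows that name no gene (unmapped 16.2% and 15.1%, multimapping 42.6% and 46.0%, no feature 5.16% and 4.70%, ambiguous 0) were left out of totals. Members and lists were chosen with earlier results of these data known.

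CPM were scaled to 1000000 over all miRNA genes. The test between libraries was an exact binomial test with edgeR 4.0.16 TMM sizes (R 4.3.3), all 401 detected genes, adjusted p under 0.05, and log2 ratios added 0.5 to each count. With 1 group there was no contrast for edgeR's quasi-likelihood test. The exact binomial test was tried on simulated counts for 401 genes, which held counting error only and no spread between replicates. It called 68% of genes changed 1.5-fold, 81% of those changed 2-fold and 0.995% of unchanged genes. At 100 CPM or more it called 100% at both folds and 1.06% of unchanged genes. These shares give no rate of false calls in the real libraries, whose biological coefficient of variation was 29.9%. Hairpins were folded with RNAfold 2.7.2. Named genes were all members, the 3 highest genes of each neighbouring block, other miRNA genes within the span, the neighbours of Mir127 by level and any detected gene sharing a seed. Mir3071, which runs past the end of Mir136, and Mir6915, not detected, were named after their values were seen. Alternatives covered the strand column, denominator, detection threshold, scaling and each replicate.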

Additional observations from a re-analysis of the deposited data

How the results depend on the processing

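The members' share of 5.38% became 1.89% of all library reads, 9.48% with the 5 most abundant other genes left out of the denominator and 1.41% without Mir127, the last chosen after seeing the data. With the unstranded column it was 5.60%, and the share of Mir127 among the members was 76.6%. The members' ratio to the Mirg side, 1.18 as the geometric mean of the libraries, was 1.56 over genes sharing under 18 bases with another hairpin and reversed to 0.307 without Mir127. Within this ratio the 18-base limit removed no member and only genes of the Mirg side, such as Mir411, so it could only rise. Without Mir127 the ratios to the Meg3 and Rian sides were 1.66 and 4.54. Leaving out 1 replicate at a time gave 5.20 to 5.56% for the share, 73.2 to 74.6% for Mir127, and ratios of 5.00 to 8.05, 11.9 to 25.4 and 1.11 to 1.24. Differing members were 7 of 8 with library totals and with no filter, 6 of 8 with DESeq2 size factors and 5 of 6 with the unstranded column. Over all genes the shares were 51.1% (205 of 401), 29.4% (210 of 715), 49.4% (198 of 401) and 48.9% (184 of 376) in the same order, beside 50.9%. No paired analysis was possible because there was a single group. The 0 of Mir432 is limited by depth, to 1.29 CPM in replicate 1, and by the multimapping reads left out of the counts.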
